A study of Mus musculus with 6 samples.

Results

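The solute carriers are the proteins that move amino acids, sugars, lipids, metals, vitamins, nucleosides and organic ions across the plasma membrane and the membranes of organelles. Genes named Slc followed by a family number, the letter a and a member number were taken from a table of mouse liver transcript levels, without the mitochondrial Slc25a carriers and a few further excluded names. Of the 211 matching names, 41 Slc25a genes and 6 others were left out. This gave 164 of the 14499 genes in the table, in 43 families. Because the name pattern asks for the letter a, other branches of these families, such as the Slco organic anion transporters and most nucleotide sugar carriers of SLC35, are not members. Of the 164 genes, 5 carry a carrier's name but are not carriers themselves: the scaffolds Slc9a3r1 and Slc9a3r2, the neighbours or partners Slc4a1ap and Slc7a6os, and the transcribed pseudogene Slc2a4rg-ps.

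The study compared total liver RNA by RNA-seq between wild-type mice (WT_DDC, 3 libraries) and mice whose Arid1a gene was knocked out in hepatocytes (Arid1a_KO_DDC, 3 libraries), Arid1a being a subunit of a SWI/SNF chromatin remodelling complex. Mice of both groups were on a mixed C57Bl/6; 129Sv background, were 10 weeks old and had 2 weeks of injury with DDC, a compound that blocks haem synthesis and injures bile ducts, so that no uninjured liver enters any comparison. The Cre line or other driver of the deletion is not given in the sources used here, nor is it stated that the libraries are of different mice. A p-value therefore reflects library spread, which may be technical in part. The Y-linked gene Ddx3y, given below, split the libraries within each genotype. Values are FPKM, fragments scaled by transcript length and by the mapped fragments of the library, and can be compared between genes. They carry no read counts, so the depth of each library is unknown.

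In the liver, hepatocytes face the blood through a basolateral membrane and the bile through a canalicular membrane, and each side has its own carriers. Basolateral carriers take up glutamine, fatty acids, organic cations and anions, and organelle carriers return sugars, amino acids, sialic acid, haem and metals from the lysosome or the endoplasmic reticulum. Many carriers work with a partner, such as the heavy chain Slc3a2 for amino acid exchangers of SLC7, and many use the sodium or proton gradients set up by ion pumps. In what follows, 3 values for a genotype are those of replicates 1, 2 and 3 in that order.

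Arid1a itself was at 7.85, 5.48 and 5.98 FPKM in wild type and at 6.61, 5.01 and 3.81 FPKM in the knockout, so the groups overlapped (adjusted p = 0.678). A whole liver also holds cells in which the gene was not targeted, and their part in the Arid1a level was not tested. In a whole-liver RNA sample, fewer cells of a type and less RNA per cell cannot be told apart. Hepatocyte markers were abundant in every library, with Alb between 26589 and 34012 FPKM and none of the 7 markers past the test. They were not all steady. Serpina1c was at 711, 897 and 220 FPKM in wild type and 73.5, 895 and 1460 FPKM in the knockout. Ttr alone of the 7 (14.3%, against 16.6% of all genes tested) had groups without overlap. It was at 4307 to 4484 FPKM in wild type and 5558 to 7576 FPKM in the knockout (log2 difference 0.60, adjusted p = 0.315). Markers of other cells differed between libraries as well. The 6 macrophage markers summed to 264 to 416 FPKM in wild type and 195 to 255 FPKM in the knockout, and the 6 biliary markers to 126 to 386 and 208 to 420 FPKM. Spp1 makes up most of the biliary sum and was not lower in the knockout (log2 difference 0.28), while the other 5 had negative differences. B and plasma cell markers summed to 18.8, 7665 and 23.3 FPKM in the knockout and to 1525 to 5511 FPKM in wild type, so that knockout replicates 1 and 3 stood apart in them. Replicate 1 of both genotypes stood apart in another way. These libraries carry the numbers L0566 and L0567, and the other 4 L0602 to L0605, with the meaning of the numbers not stated. The Y-linked gene Ddx3y was at 0.0527 and 0.0227 FPKM in replicate 1 of wild type and knockout and at 9.27 to 11.3 FPKM in the other 4 libraries.

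The transcripts were spread over more than 4 orders of magnitude. Of the 164 members, 6 had a mean over the 6 libraries of at least 100 FPKM, 54 lay between 10 and 100 FPKM, 79 between 1 and 10 FPKM and 25 below 1 FPKM. The median member was at 6.31 FPKM, close to the median of 5.24 FPKM over the whole table. Their FPKM summed to 2997, 2769 and 2849 in wild type and to 2742, 3008 and 3610 in the knockout. Knockout replicate 3 had the highest sum and knockout replicate 1 the lowest, so the genotypes overlapped. Only 3 members, Slc22a28, Slc13a2 and Slc24a5, were listed at 0 in any library.

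**Figure D1:**
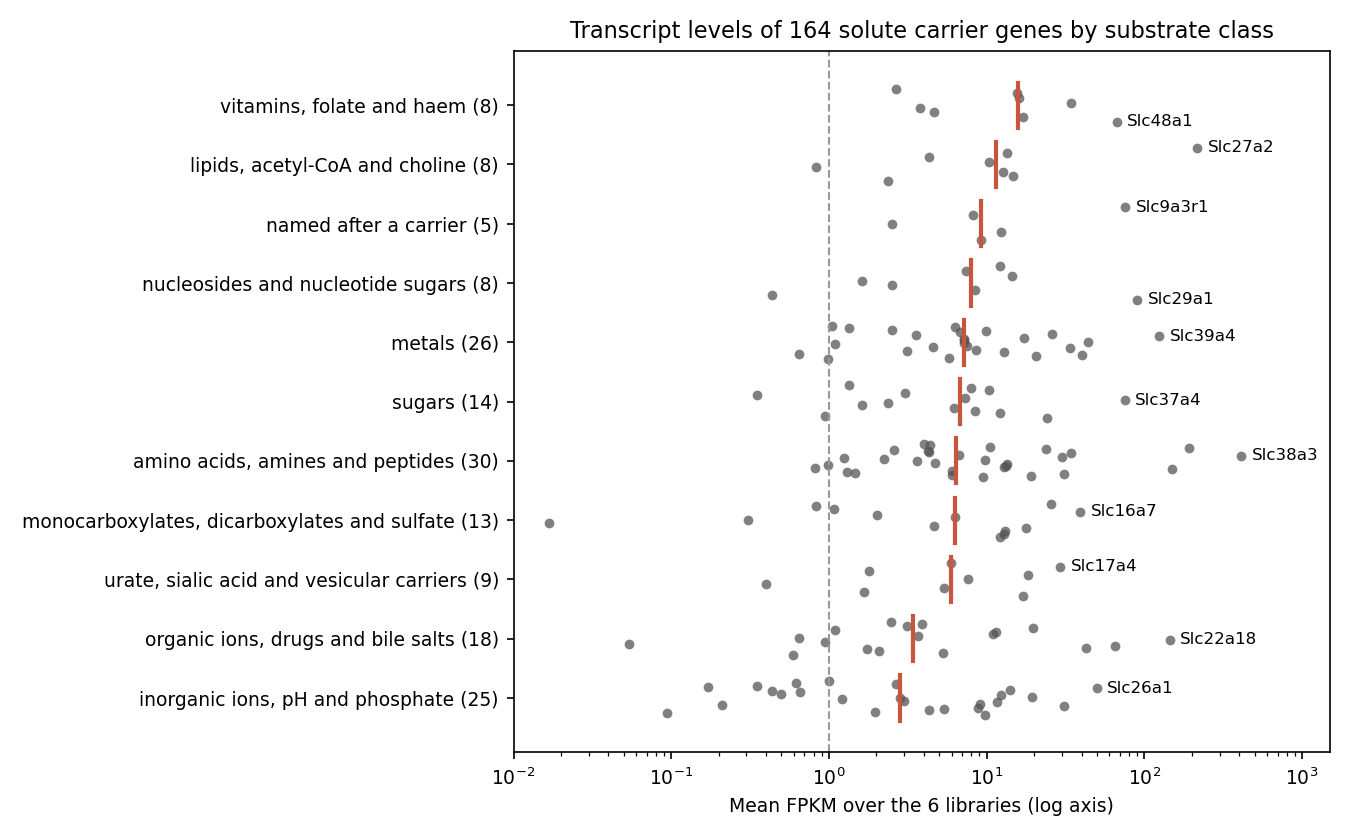
Each point is 1 of the 164 solute carrier genes, placed by its mean FPKM over the 6 libraries on a log axis and by its substrate class, with the number of genes of each class in brackets and the most abundant gene named; red bars are class medians and the dashed line marks 1 FPKM. Most classes have members from below 1 FPKM to above 10 FPKM, and the highest point is Slc38a3 at 411 FPKM.

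Amino acid carriers held the highest single levels. Slc38a3, the sodium-coupled glutamine transporter of hepatocytes, was at 457, 292 and 291 FPKM in wild type and 492, 423 and 512 FPKM in the knockout. All 3 knockout libraries were above wild-type replicates 2 and 3, but wild-type replicate 1 lay among them, and the log2 difference of 0.48 (SE 0.21) did not pass (adjusted p = 0.474). Its relative Slc38a4, which takes up neutral and cationic amino acids, had a mean of 192 FPKM, and Slc6a13, an uptake carrier for GABA and taurine, 149 FPKM. Slc6a12, a betaine carrier that adjoins Slc6a13 on chromosome 6, averaged 19.1 FPKM. The heavy chain Slc3a2 varied little, at 36.6, 34.5 and 34.2 FPKM in wild type and 35.4, 33.3 and 32.3 FPKM in the knockout. Its light chains were far lower: Slc7a8 averaged 3.6 FPKM, Slc7a7 4.72 FPKM and Slc7a5, the large neutral amino acid exchanger of growing cells, 0.815 FPKM. Slc7a2, a carrier of arginine and other cationic amino acids, stood between them at 29.9 FPKM. Slc1a5, a glutamine exchanger of proliferating cells, was at 0.87 to 3.27 FPKM.

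Among lipid carriers, the fatty acid transporter and acyl-CoA synthetase Slc27a2 was at 187, 222 and 181 FPKM in wild type and 160, 214 and 334 FPKM in the knockout. Its knockout libraries spanned all of the wild-type values, with replicate 3 the highest. The next in level, the choline-transporter-like genes Slc44a3 and Slc44a1, had means of 14.6 and 13.5 FPKM. Slc33a1, which brings acetyl-CoA into the endoplasmic reticulum, was at 12.7 FPKM.

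Carriers of organic ions came next. Slc22a18, an imprinted gene of the organic cation transporter family, had a mean of 145 FPKM. Slc47a1, which passes organic cations into bile, was at 35.4 to 50 FPKM. Slc22a7, an organic anion carrier, had a mean of 3.92 FPKM.

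Slc39a4, a zinc importer, led the metal carriers at 114, 155 and 141 FPKM in wild type and 82.6, 122 and 133 FPKM in the knockout. Replicate 1 was the lowest in each genotype, and the groups overlapped. The zinc carriers Slc39a1 and Slc39a7 followed at 43.7 and 40.3 FPKM, and the copper importer Slc31a1 at 34 FPKM. Slc39a14, which imports zinc, iron and manganese, was at 21.1 to 26.7 FPKM in wild type and 23.3 to 37.7 FPKM in the knockout, while the manganese exporter Slc30a10 averaged 3.56 FPKM. Of the 50-base stretches of Slc39a7 transcripts, 74.5% also occur in other genes, above all Gm20427, so the authors' counting could have split its fragments with that gene. The same holds in part for Slc39a1, with 21.8% of stretches shared.

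The nucleoside carrier Slc29a1, at 68.7, 58.3 and 109 FPKM in wild type and 67.4, 98.5 and 139 FPKM in the knockout, differed by more within each genotype than between them. Slc37a4, which brings glucose 6-phosphate into the endoplasmic reticulum for glucose release, was at 59.5, 67.7 and 58.8 FPKM in wild type and 59.1, 80.5 and 124 FPKM in the knockout. Its highest value was in knockout replicate 3 and its knockout replicate 1 lay within the wild-type range. Slc2a1, the widely expressed glucose transporter, was much lower, at 5.23 to 9.54 FPKM. Slc48a1, which moves haem out of the lysosome, was at 69.1, 88.9 and 59.7 FPKM in wild type and 58.5, 61.7 and 64.4 FPKM in the knockout, and the folate carrier Slc46a1 at 13.8 to 20.9 FPKM. These ranges overlapped as well. Among carriers of small ions the sulfate transporter Slc26a1, at 49.8 FPKM, was above the phosphate carriers Slc20a1 and Slc20a2 (30.9 and 19.3 FPKM) and the anion exchanger Slc4a2 (14.1 FPKM). Of the monocarboxylate carriers, Slc16a7 averaged 39.1 FPKM, Slc16a1 12.2 FPKM and Slc16a3, typical of glycolytic cells, 1.07 FPKM. In 60 of the 140 members that passed the filter, the highest library exceeded the lowest more than 2-fold.

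The genotypes were compared for the 140 members that reached 1 FPKM in any 3 or more of the 6 libraries, among 11839 genes tested. The other 24 members were too low. No solute carrier passed an adjusted p of 0.05: 0 of 140 rose and 0 fell by limma on log2(FPKM + 1) with Benjamini-Hochberg adjustment. Of all genes tested 0.49% passed, 0.135% by rising and 0.355% by falling. The smallest adjusted p among members was 0.13. At an unadjusted p under 0.05, 8 members were higher and 9 lower in the knockout, which is 12.1% of the 140 against 11.1% of all genes tested (4.65% higher and 6.5% lower). In 22 members (9 higher and 13 lower) the genotypes did not overlap, 15.7% against 16.6% of all genes (7.09% higher and 9.56% lower). The exact two-sided permutation test of such a member gives p = 0.1, the smallest that 3 against 3 libraries allow. Among the 22, Slc15a2, Slc2a5 and Slc38a9 passed the filter only through the genotype where they were higher. Their lack of overlap was therefore fixed by the filter. The shares of solute carriers were thus close to those of genes in general.

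Their differences were of ordinary size too. The median log2 difference of members was −0.052, with 64 above and 76 below 0, beside a median of 0.0034 over all genes tested. The median size without regard to sign was 0.21 for members and 0.19 for all genes. In 107 of 140 members (76.4%) the 95% confidence interval lay within a 2-fold change in either direction, against 78.1% of all genes, and 3 members, Slc22a7, Slc15a2 and Slc43a1, had an estimate beyond 2-fold. Differences are on the log2(FPKM + 1) scale, which understates the change of low genes. The mitochondrial carriers of SLC25, which were left out of the set, gave 0 of 39 tested past the threshold and a median of 0.13.

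**Figure D2:**
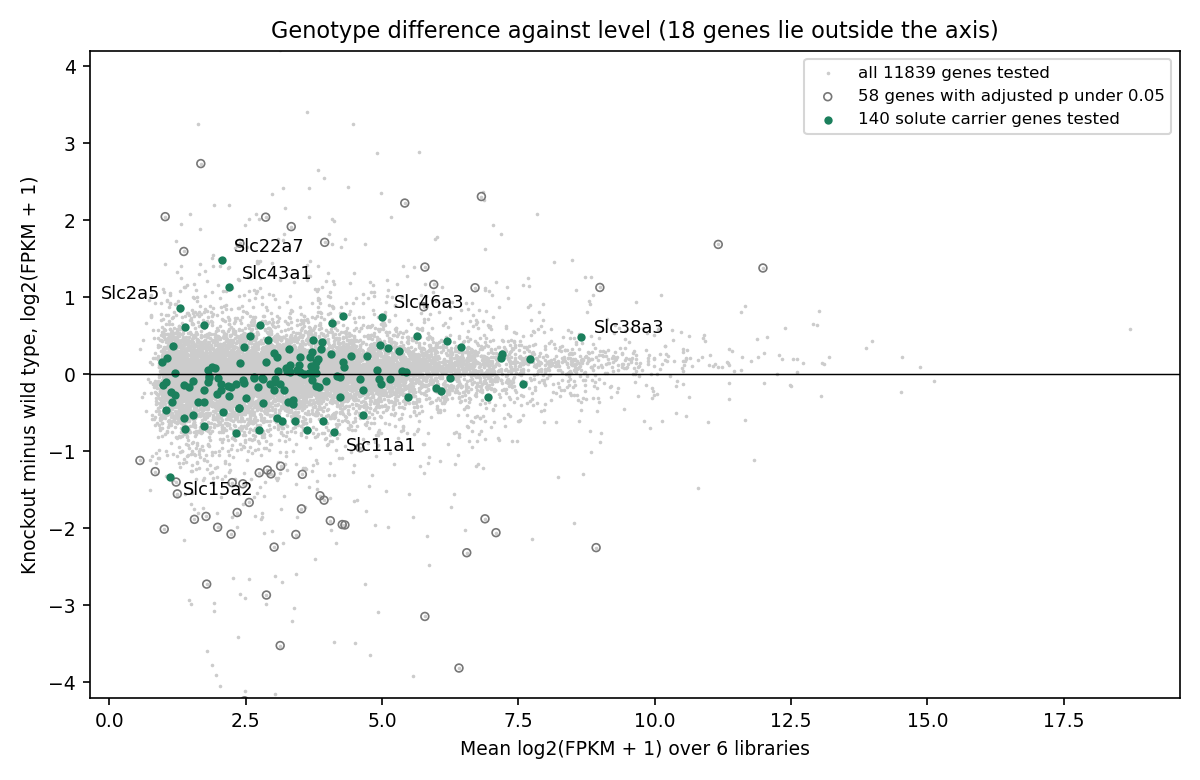
The log2(FPKM + 1) difference of knockout minus wild type is plotted against the mean log2(FPKM + 1) over 6 libraries for all 11839 genes tested (grey), for the 58 genes with an adjusted p under 0.05 (open circles) and for the 140 solute carriers tested (green). The solute carriers lie within the grey cloud, and Slc22a7 at 1.48 and Slc15a2 at −1.33 are the most distant, neither being past the threshold.

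The member with the smallest p was Slc22a7, which carries organic anions and cyclic nucleotides across the basolateral membrane (ENSMUSG00000067144, GRCm38 chromosome 17, 46432183 to 46438457, minus strand). It was at 1.41, 2.03 and 1.11 FPKM in wild type and 3.72, 5.82 and 9.39 FPKM in the knockout. Every knockout library was above every wild-type library, with means of 1.52 ± 0.471 and 6.31 ± 2.87 FPKM (SD, n = 3 each), a ratio of 4.16. The log2 difference was 1.48 (SE 0.30, 95% interval 0.76 to 2.20, adjusted p = 0.13), and none of its alternatives brought it past the threshold (adjusted p from 0.0646 to 0.404). Other members of its family did not share its place. Slc22a18 had a difference of 0.21, while the ergothioneine carrier Slc22a4 had −0.67 (−0.28 with a pseudocount of 5) and the carnitine carrier Slc22a5 0.50 (0.19 without knockout replicate 3). Slc22a30, of the same family, was at 12.6, 12.8 and 16.9 FPKM in wild type and 17, 27 and 31.1 FPKM in the knockout. Its groups just failed to overlap, with a log2 difference of 0.76 (SE 0.24, adjusted p = 0.314). Slc22a30 lies with Slc22a27, Slc22a28 and Slc22a29 in 1 stretch of chromosome 19 (7864388 to 8405111). Slc22a30 shares 34.3% of its 50-base stretches with other genes, above all Slc22a28 (31%), so reads may have been divided between such genes. The neighbours differed from Slc22a30: Slc22a27 was lower in the knockout by −0.71 with overlapping groups, and Slc22a28 and Slc22a29 were too low to test.

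Slc15a2, a high-affinity carrier of small peptides (ENSMUSG00000022899, chromosome 16, 36750177 to 36784962), was at 2.64, 1.49 and 3.48 FPKM in wild type and 0.145, 0.273 and 0.759 FPKM in the knockout. All 3 knockout libraries were below all wild-type libraries, with means of 0.392 ± 0.324 and 2.54 ± 0.999 FPKM (SD, n = 3 each). Slc15a2 reached 1 FPKM only in wild type and passed the filter through those libraries, so its lack of overlap was fixed by the filter. The log2 difference was −1.33 (SE 0.27, adjusted p = 0.131). Because its level is low, this value depends on the pseudocount, from −0.48 with a pseudocount of 5 to −2.54 with 0.1, and it passed the threshold under none of the alternatives. The other peptide carriers, Slc15a3 and Slc15a4 of the lysosome, had differences of −0.72 and 0.12, with overlapping groups in both. That of Slc15a3 was −0.23 without wild-type replicate 1, −0.26 without knockout replicate 3 and −1.16 without knockout replicate 1.

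**Figure D3:**
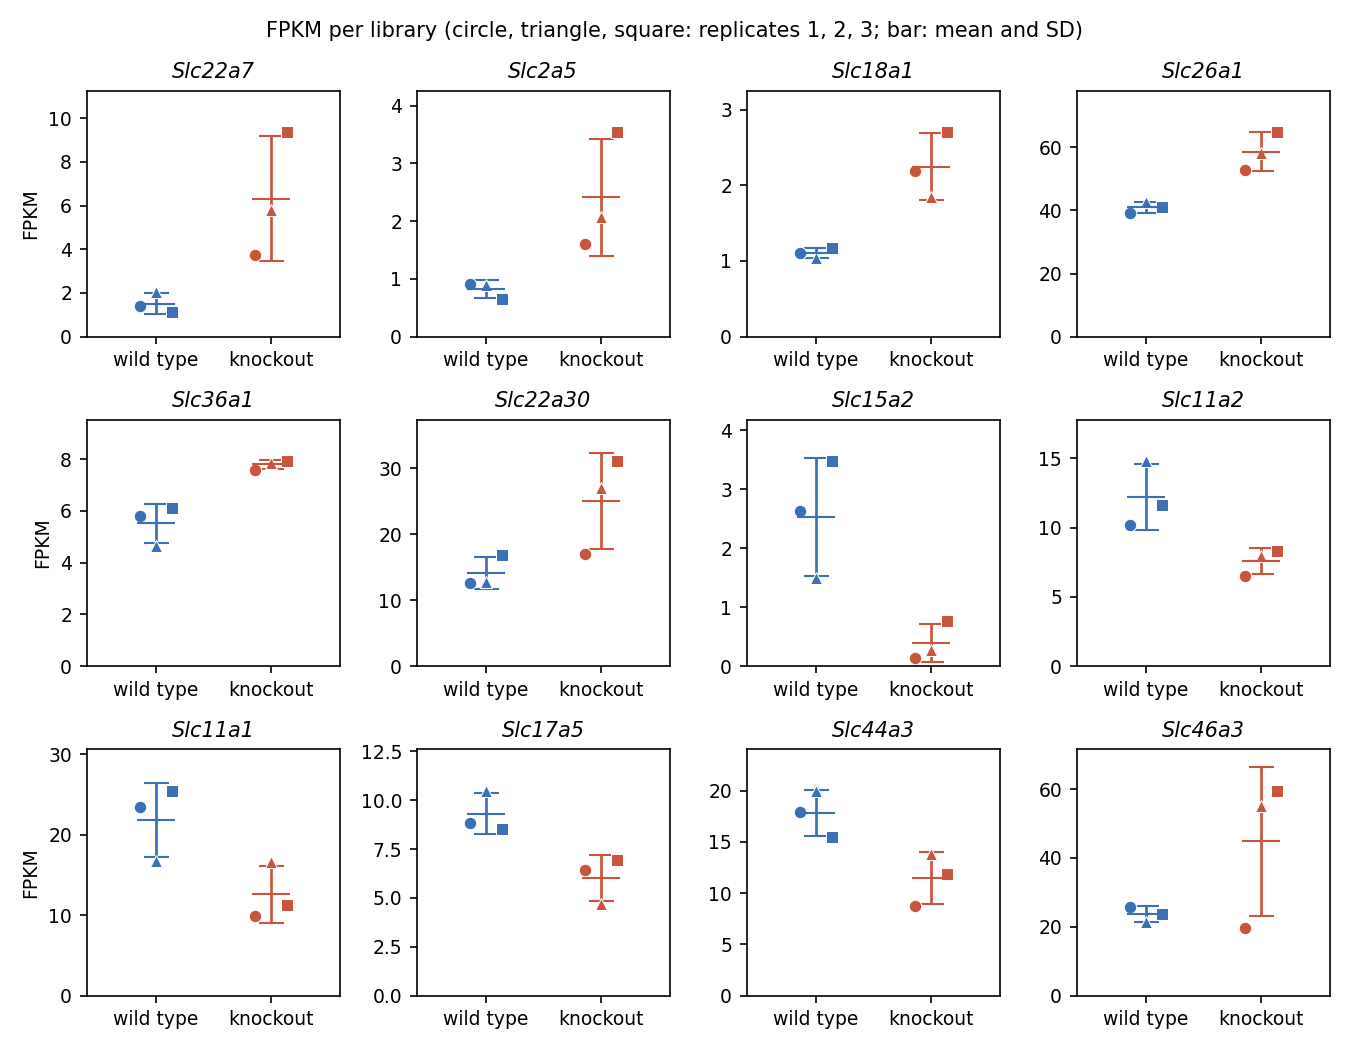
FPKM of 12 solute carriers in each of the 6 libraries, with wild type in blue, knockout in red, and the mean and SD of each genotype as bars; each panel has its own axis from 0. The genes were picked by their values, 11 of them from the 22 tested members without overlap (15.7%, against 16.6% of all genes tested). In these 11 panels the genotypes therefore do not overlap. For Slc2a5 and Slc15a2 this was already fixed by the filter on low values. In the last, Slc46a3, knockout replicate 1 (19.8 FPKM) lies below all wild-type libraries while knockout replicates 2 and 3 (55 and 59.6 FPKM) lie above them.

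Other carriers that were higher in every knockout library had smaller differences. Slc26a1, the sulfate and oxalate exchanger of the basolateral membrane, was at 39.1, 42.6 and 41.1 FPKM in wild type and 52.8, 58.1 and 65 FPKM in the knockout. Its libraries were close within each genotype, and the log2 difference of 0.50 (SE 0.13) had an adjusted p of 0.231. The fructose carrier Slc2a5 was low throughout, at 0.919, 0.902 and 0.65 FPKM in wild type and 1.61, 2.07 and 3.55 FPKM in the knockout. Its log2 difference was 0.86 (SE 0.23, adjusted p = 0.24). Slc2a5 reached 1 FPKM only in the knockout and passed the filter through those libraries, so its lack of overlap was fixed by the filter. Slc18a1, a vesicular monoamine transporter, was at 1.1, 1.04 and 1.17 FPKM and at 2.19, 1.84 and 2.71 FPKM. Its groups were well apart for so low a level, by 0.62 on the log2 scale (adjusted p = 0.222). Slc36a1, which exports amino acids from the lysosome with protons, was at 5.81, 4.65 and 6.1 FPKM in wild type and 7.59, 7.87 and 7.93 FPKM in the knockout (0.44, adjusted p = 0.316). The potassium-chloride cotransporter Slc12a4 (0.33) and the monocarboxylate carrier Slc16a7 (0.30) were likewise higher in each knockout library, with adjusted p of 0.468 and 0.481. The pseudocount moved several of these differences by over 1.5 times: a pseudocount of 5 gave 0.77 for Slc22a7, 0.34 for Slc2a5, 0.25 for Slc18a1 and 0.29 for Slc36a1.

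Metal carriers were lower more often than higher, with 15 of 24 tested below 0, a median log2 difference of −0.12 and none past the threshold. Both SLC11 carriers of divalent metals were lower in every knockout library. Slc11a2, which brings iron across the endosomal and plasma membranes, was at 10.2, 14.8 and 11.6 FPKM in wild type and 6.53, 7.93 and 8.32 FPKM in the knockout (log2 difference −0.61, SE 0.18, adjusted p = 0.27). Slc11a1, which pumps metals out of the phagosome of macrophages and neutrophils, was at 23.4, 16.7 and 25.5 FPKM in wild type and 9.93, 16.6 and 11.3 FPKM in the knockout. Wild-type replicate 2 and knockout replicate 2 were nearly equal, and the log2 difference was −0.76 (SE 0.24, adjusted p = 0.305). All 6 macrophage markers also had a lower mean in the knockout, from −0.10 (Cd68) to −1.26 (Marco) on the log2 scale, none past the threshold and none at 0. Among these markers the groups did not overlap in Csf1r (−0.77, adjusted p = 0.202) and Marco. They overlapped in Adgre1, Cd68, Vsig4 and the Kupffer cell gene Clec4f (−0.20, adjusted p = 0.685). The 3 neutrophil markers in the table summed to 29.8 to 55.3 FPKM in wild type and 12.1 to 24.8 FPKM in the knockout, and their sum was highest in wild-type replicate 2, the lowest wild-type library for Slc11a1. The part of these cells in the Slc11a1 difference was not tested. Among the other metal carriers, the magnesium carrier Slc41a3 (−0.46, adjusted p = 0.405) and the zinc importer Slc39a1 (−0.30, adjusted p = 0.496) had groups that did not overlap (Slc41a3 gave −0.15 with a pseudocount of 5 and −0.85 with 0.1), whereas Slc39a14 (0.24), Slc30a10 (−0.15) and Slc31a1 (0.34) overlapped.

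Further members without overlap were lower in the knockout. Slc17a5, which returns sialic acid from the lysosome, was at 8.85, 10.5 and 8.55 FPKM in wild type and 6.44, 4.68 and 6.94 FPKM in the knockout (log2 difference −0.56, SE 0.18, adjusted p = 0.298). Slc44a3 was at 17.9, 20 and 15.5 FPKM and at 8.71, 13.8 and 11.9 FPKM (−0.61, SE 0.19, adjusted p = 0.314). In the same direction, and without overlap, were Slc44a2 (−0.44) and the fatty acid carrier Slc27a1 (−0.36), which makes 3 of the 7 lipid carriers tested, beside 9.56% of all genes tested. This class was singled out among 11 after its values were seen, and in 2 classes no member was without overlap. Both values depend on the pseudocount, with 5 giving −0.24 for Slc44a2 and −0.16 for Slc27a1. The scaffold Slc9a3r2 was at 7.42, 10.3 and 13.1 FPKM in wild type and 6.95, 6.27 and 5.52 FPKM in the knockout (−0.61, adjusted p = 0.354). Its more abundant relative Slc9a3r1, which anchors canalicular carriers, had a mean of 75.6 FPKM and a difference of −0.052.

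By substrate, the classes had 0 members past the threshold and medians near 0. The amino acid, amine and peptide carriers had 9 tested members above and 20 below 0, with a median log2 difference of −0.13. The carriers of inorganic ions had 11 above and 5 below (median 0.094), and those of nucleosides and nucleotide sugars 6 above and 1 below (median 0.11). All 5 nucleotide sugar carriers of SLC35a were above 0, the highest being Slc35a4 at 0.41 with overlapping groups. Vitamin and haem carriers had 2 above and 6 below (median −0.065), sugar carriers 4 above and 8 below (median −0.084), and mono- and dicarboxylate carriers 6 above and 4 below (median 0.19). These counts hold genes whose difference is smaller than its error, and none of the signs was tested.

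Within the amino acid carriers, related genes had differences of opposite sign. Slc43a1, a carrier of large neutral amino acids, was at 3.77, 1.16 and 1.92 FPKM in wild type and 2.86, 7.08 and 9.08 FPKM in the knockout. Knockout replicate 1 lay within the wild-type range and knockout replicates 2 and 3 above it, with a log2 difference of 1.13 (SE 0.43, adjusted p = 0.395). Slc43a2, a second carrier of this kind, was at 5.92, 6.23 and 4.5 FPKM in wild type and 4.84, 2.29 and 1.9 FPKM in the knockout (−0.77, adjusted p = 0.383). Here too knockout replicate 1 lay among the wild-type libraries. With a pseudocount of 5 these differences were 0.61 for Slc43a1 and −0.41 for Slc43a2. The creatine carrier Slc6a8, named after its values were seen, gave 6.39 to 8.57 FPKM in wild type and 2.45 to 6.56 FPKM in the knockout (−0.72, adjusted p = 0.43). Smaller differences were those of Slc3a2 (−0.059), Slc7a2 (−0.057) and Slc38a2, a glutamine and alanine carrier (0.018), each less than its standard error.

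Some carriers gave genotype differences of opposite sign in replicate 1 and in replicates 2 and 3. In 32 of the 140 tested members (22.9%, against 19.7% of all genes tested), these replicates separated the genotypes while replicate 1 went the other way. Among them was Slc46a3, a lysosomal carrier (ENSMUSG00000029650, chromosome 5, 147878437 to 147894815), at 25.9, 21.3 and 23.8 FPKM in wild type and 19.8, 55 and 59.6 FPKM in the knockout. Over all libraries its log2 difference was 0.75 (SE 0.40, adjusted p = 0.55). It was −0.37 in replicate 1 and 1.31 over replicates 2 and 3. Without knockout replicate 1 the difference was 1.25 and passed the threshold (adjusted p = 0.0425), as it did in libraries L0602 to L0605 alone (1.31, adjusted p = 0.0475). Slc46a3 was the 1 member past the threshold in either of these reduced sets, in which 0.566% and 0.532% of all genes passed. Whether the genotype difference itself depends on the library set was tested with an interaction term, a test added after the data were seen. The interaction for Slc46a3 was −1.68 (SE 0.24) with an adjusted p of 0.335, and 0 of 140 members and 0% of all genes passed. At an unadjusted p under 0.05 there were 15 of the 140 members, against 1072 of the 11839 genes tested (9.05%), a similar share. Slc46a1, of the same family as Slc46a3, had a genotype difference of −0.027.

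**Figure D4:**
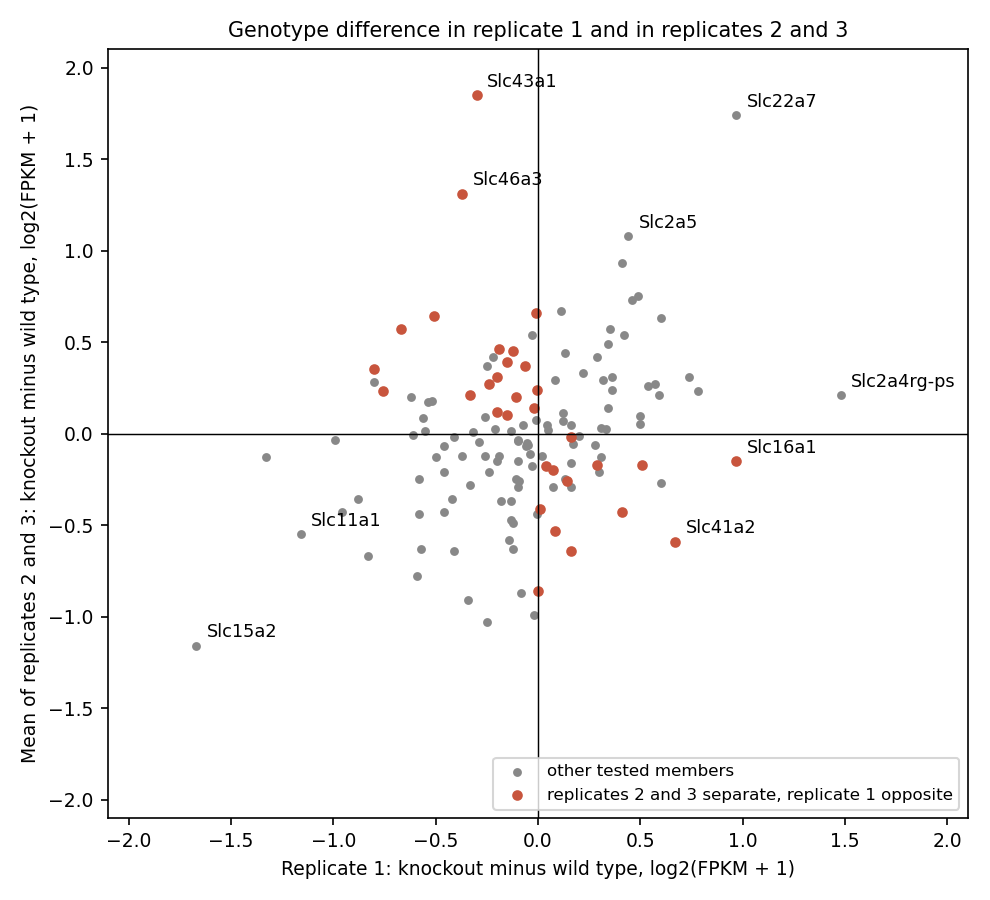
Each point is 1 of the 140 solute carriers tested, with the log2(FPKM + 1) difference of knockout minus wild type in replicate 1 on the x axis and the mean difference in replicates 2 and 3 on the y axis. The 32 red points are those whose replicates 2 and 3 separated the genotypes while replicate 1 went the other way; Slc43a1 (−0.30 and 1.85) and Slc46a3 (−0.37 and 1.31) are the most distant of them, whereas Slc22a7 and Slc15a2 have the same sign on both axes.

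Slc16a1, the main carrier of lactate and ketone bodies, was at 9.88, 11.7 and 11 FPKM in wild type and 20.3, 9.91 and 10.3 FPKM in the knockout. Only knockout replicate 1 was high, and the difference over all libraries was 0.22 (adjusted p = 0.802). Slc34a2, a sodium-phosphate carrier too low to be tested, was at 1.69 FPKM in knockout replicate 1 and at 0.0964 to 0.31 FPKM in the other 5 libraries.

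Of the remaining members, most overlapped between genotypes. The citrate carrier Slc13a5 was at 4.14, 1.57 and 2.16 FPKM in wild type and 1.79, 1.28 and 1.17 FPKM in the knockout, a log2 difference of −0.53, or −0.25 without wild-type replicate 1. Slc37a3, a member of the sugar phosphate carrier family, was steady in wild type at 6.92, 7.32 and 6.92 FPKM and split in the knockout at 7.87, 4.07 and 4.34 FPKM. Slc17a8, a vesicular glutamate transporter, was at 0.666, 3.46 and 3.15 FPKM in wild type and 0.668, 1.15 and 1.63 FPKM in the knockout. Its replicate 1 libraries were equally low, and its genotype difference was −0.57 (SE 0.40). The pseudogene Slc2a4rg-ps was at 0.409 FPKM in wild-type replicate 1 and at 2.57 to 3.27 FPKM in the other 5 libraries. Its groups did not overlap, but the difference of 0.64 had an SE of 0.37. Intervals of the ascorbate carrier Slc23a1 (0.26, SE 0.26) and the urate and sugar carrier Slc2a9 (0.22, SE 0.14) both included 0. The riboflavin carrier Slc52a2 (−0.17, SE 0.23) was also within its error.

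Levels were also compared between replicate 1 and the other replicates irrespective of genotype. The library number set and the split in the Y-linked gene Ddx3y fall on the same libraries. Library number and a difference in sex therefore cannot be told apart in this comparison. In a fit with both genotype and the library number set, 0 of 140 members passed for the set, against 0.127% of all genes. At an unadjusted p under 0.05 there were 29 members, 16 higher and 13 lower in replicate 1, which is 20.7% against 21.3% of all genes. In 36 members (25.7%, against 28.4% of all genes) both replicate 1 libraries lay outside the range of the other 4 on the same side. Solute carriers thus shared this feature of the libraries to about the same extent as other genes.

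The bile acid uptake carrier Slc10a2 was at 3.77, 11 and 19.6 FPKM in wild type and 4.47, 11.2 and 19 FPKM in the knockout. Both replicate 1 libraries were the lowest, and libraries of the same number were nearly equal, so that its genotype difference was 0.056 (adjusted p = 0.982) and its difference between replicate 1 and the others −1.62 (SE 0.29, adjusted p = 0.102). Slc10a2 is a carrier of bile duct cells as well as of the gut, and in these libraries the summed biliary markers were 126, 386 and 301 FPKM in wild type and 241, 208 and 420 FPKM in the knockout. Of this sum Spp1 held 108, 348 and 271 FPKM and 229, 195 and 406 FPKM. The other 5 had log2 differences from −0.58 (Krt7) to −1.42 (Cldn4), and the groups did not overlap in Epcam, Sox9 and Cldn4. Krt19, at 3.66, 12.6 and 10.3 FPKM and at 3.74, 6.29 and 4.89 FPKM, was lowest in replicate 1 of both genotypes, as Slc10a2 was. Every other biliary marker was lowest in replicate 1 of wild type but not of the knockout. The part of bile duct cells in the level of Slc10a2 was not tested. Another carrier of bile duct cells, the chloride and bicarbonate exchanger Slc4a2, showed no such split, at 13.3, 14.8 and 9.2 FPKM and at 17.3, 11.7 and 18.4 FPKM, nor did Slc12a2, a sodium-potassium-chloride cotransporter, at 1.17, 1.64 and 1.34 FPKM and at 1.03, 0.962 and 1.1 FPKM. Of the 6 biliary markers, Cldn4 fell in the knockout (log2 difference −1.42, adjusted p = 0.0386) and 5 did not pass. The Cldn4 call was lost in 8 of the 17 alternatives (adjusted p from 0.0303 to 0.157), among them the replicate block (0.0851) and 5 of the 6 fits that leave out 1 library, all but that without wild-type replicate 1.

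Other members were higher in replicate 1. Slc15a3, a lysosomal carrier of histidine and peptides in immune cells, was at 30.2, 9.8 and 10.6 FPKM in wild type and 16.6, 8.8 and 4.07 FPKM in the knockout. Both replicate 1 values were above the other 4 libraries, by 1.40 on the log2 scale (SE 0.27, adjusted p = 0.103). The summed macrophage markers were 416, 264 and 288 FPKM in wild type and 243, 255 and 195 FPKM in the knockout, highest in wild-type replicate 1 but not in knockout replicate 1, and their part in Slc15a3 was not tested. Slc15a3 overlaps Tmem132a on the opposite strand, with 26.8% of its 50-base stretches shared. Whether the authors' counting used the strand is not given in the sources used here. Slc7a8, an exchanger of neutral amino acids that pairs with Slc3a2, was at 7.34, 2.43 and 3.44 FPKM and at 4.59, 2.28 and 1.51 FPKM (1.03, adjusted p = 0.10). The endosomal sodium-proton exchanger Slc9a9 was at 2.9, 1.68 and 1.56 FPKM and at 2.81, 1.37 and 1.47 FPKM (0.61). Slc22a27, the organic anion carrier beside Slc22a30, was at 5.14, 0.712 and 2.58 FPKM and at 3.09, 0.404 and 0.485 FPKM (1.41, adjusted p = 0.11). It shares 29.9% of its stretches with other transcripts, above all those of Slc22a29, which was at 2.51, 0.314 and 0.967 FPKM and at 1.25, 0.227 and 0.374 FPKM.

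**Figure D5:**
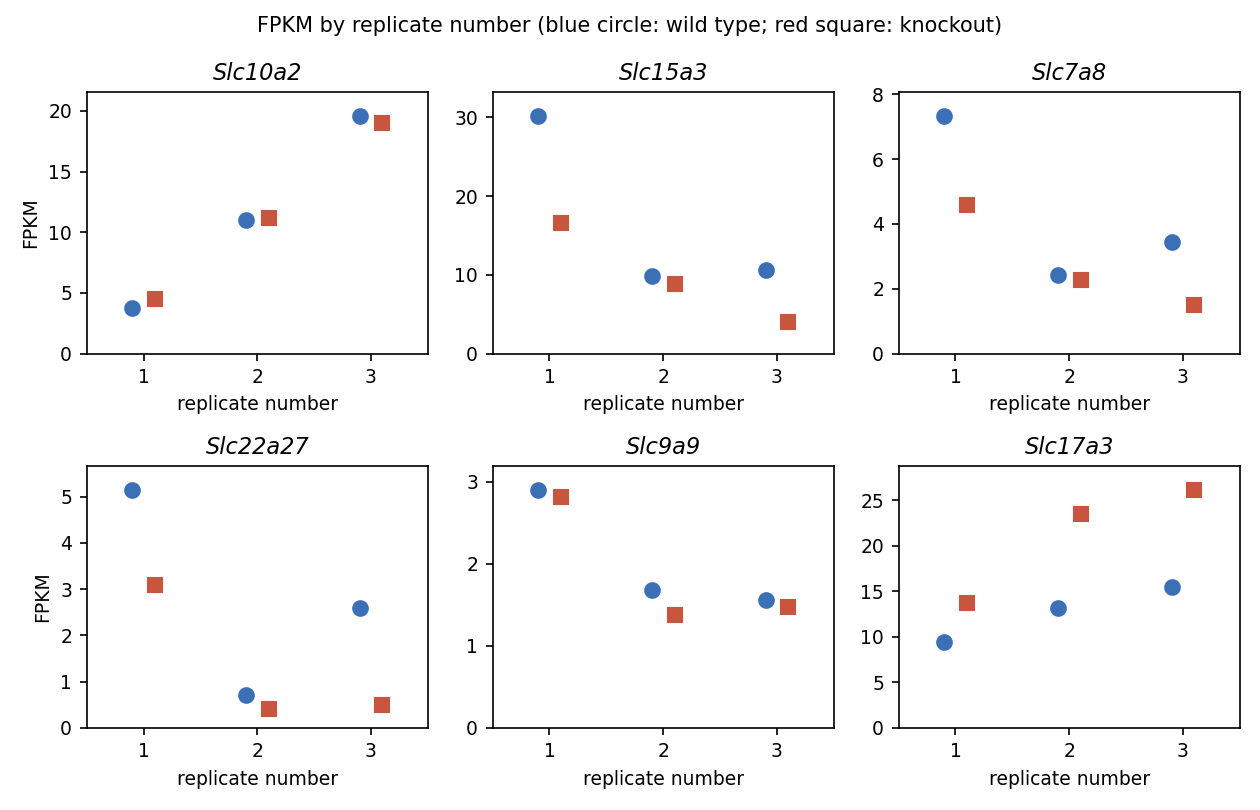
FPKM of the 6 solute carriers with the smallest p for the library number set, in wild type (blue circles) and knockout (red squares) by replicate number, each panel on its own axis from 0; the replicate numbers are labels without an order. In Slc10a2 and Slc17a3 both replicate 1 libraries are the lowest of their genotype, and in Slc15a3, Slc7a8, Slc22a27 and Slc9a9 they are the highest.

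Slc17a3, a carrier of urate and organic anions, was at 9.47, 13.2 and 15.5 FPKM in wild type and 13.7, 23.5 and 26.1 FPKM in the knockout, with a log2 difference of 0.67 between genotypes (SE 0.28, adjusted p = 0.446) and −0.68 between replicate 1 and the others (adjusted p = 0.105). Neither passed. Knockout replicate 1 lay within the wild-type range. Slc17a3 sits in a row with Slc17a2, Slc17a1 and Slc17a4 on chromosome 13 (23806993 to 23915009), and its neighbours had genotype differences of −0.035, −0.052 and 0.06.

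Transport genes with other names, from lists of related transporters, partners and regulators, had 0 members past the threshold as well. Of the 22 related transporters tested, 5 were lower and 0 higher at an unadjusted p under 0.05, beside 6.5% lower and 4.65% higher of all genes tested, and the median log2 difference was −0.028. Mfsd2a, a carrier of lysophospholipids, had the largest, at 38, 21.4 and 26.6 FPKM in wild type and 10.9, 3.27 and 16 FPKM in the knockout (−1.60, SE 0.50, adjusted p = 0.305). Of the 18 partner proteins and pump subunits tested the median was −0.094. Atp1b1, a subunit of the sodium pump whose gradient drives many of these carriers, was at 18.8, 15.7 and 20.7 FPKM in wild type and 40.1, 31.3 and 48.9 FPKM in the knockout, apart in all libraries (1.07, SE 0.20, adjusted p = 0.101). Bsg, the chaperone of the monocarboxylate carriers Slc16a1 and Slc16a3, was at 505, 544 and 505 FPKM and at 405, 422 and 428 FPKM (−0.31, adjusted p = 0.448). The 15 regulators of transporter genes had a median of 0.095, among them Hnf4a at 0.095 with overlapping groups.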

How the data were processed

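Total liver RNA from 6 mouse libraries, 3 per genotype, was measured by RNA-seq. The values are log2 FPKM as deposited, in 1 table with a column per library. TopHat2 2.0.6 and Cufflinks were used with mm10 and GRCm38, per the submitters' processing notes; the sources used here name no annotation or strand setting. The values carry an offset of 0.000977, seen from the lowest value of −10, which stands for an FPKM of 0, and it was removed; of 60079 values between 1 and 50 FPKM, 100% then had 6 significant digits (relative tolerance 3e-08) and 0% before. A listed 0 can be a failed estimate. Each library had 11280 to 11712 genes at 1 FPKM or more.

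FPKM are not counts, so limma 3.58.1 in R 4.3.3 was run on log2(FPKM + 1) over all 11839 genes with at least 1 FPKM in at least 3 libraries (lmFit, eBayes with trend, two-sided, Benjamini-Hochberg over all genes tested, threshold 0.05). All p-values of log2 differences and all standard errors are from limma. The fit was tested on simulated data, in which the changed genes were drawn from those of higher level. It recovered 57 of 100 genes changed by 1 on the log2 scale and 99 of 100 changed by 2. Of its 166 calls, 10 were genes left unchanged. Gene positions are from GENCODE release 21 for mouse on GRCm38, which held 164 of 164 member identifiers, and shared stretches of 50 bases were counted in its transcripts.

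The members and lists were chosen with earlier results of these data known. Named were, in each substrate class, up to 4 members with the smallest p and the member with the highest level, a fixed set of genes, and the 6 members with the smallest p for the library number set; others serve as relatives of these and were named after their values were seen. Of the fixed names, 4 (Slc7a11, Slc51a, Slc51b and Slc4a1) are not analysed here, and a few further members are not reported here by name. Alternatives were other pseudocounts, filters, scalings and eBayes settings, a term for replicate or library number, library subsets and each library left out.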

Additional observations from a re-analysis of the deposited data

How the results depend on the processing

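The count of solute carriers past the threshold was 0 rising and 0 falling with either other pseudocount (0.1 or 5), without the filter or with a stricter one, after median-of-ratios or quantile scaling, under both other eBayes settings, and with a term for the library number set. It was 1 rising, Slc46a3, when the fit held the 4 libraries L0602 to L0605. Single libraries left out gave 0 to 1 rising and 0 falling, the 1 again being Slc46a3 without knockout replicate 1. Without a filter, 26 members in place of 22 had genotypes that did not overlap. For the library number set, 0 members passed under every alternative run. The 68 named genes that were fitted gave 1134 recomputed differences, of which 52 moved by more than 1 standard error; 52 genes kept their sign throughout and 16 did not. With the replicate number as a block, 0 members rose and 0 fell, and 0 genes of the whole table. Deviations from the group means correlated by 0.346, 0.133 and 0.0212 between libraries of number 1, 2 and 3, so the numbers were not taken to pair the libraries. Depth is unknown, and with 3 libraries per genotype the 95% interval lay within a 2-fold change for 107 of the 140 members tested, and reached beyond it for the others.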
